A study of Mus musculus with 20 samples.

Results

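The insulin-like growth factor (IGF) system was described here by 9 genes, which were found by their symbols in the count table of the series and make up 9 of its 16003 genes. They are 2 ligands (Igf1 and Igf2), 2 receptors (Igf1r and Igf2r) and 5 binding proteins (Igfbp2, Igfbp3, Igfbp4, Igfbp5 and Igfbp7). Single cells were profiled from spinal cords of female C57BL/6J mice, bought at 8 to 10 weeks of age, that received a T9 contusion or a sham operation, a laminectomy without contusion. Mice ate chow with 1200 ppm PLX5622, an inhibitor of Csf1r that depletes microglia, or Vehicle chow, from 2 weeks before surgery to the end point. There were 6 groups: sham, 7 days post-injury (dpi) and 28 dpi, each on Vehicle and on PLX5622, and the sham labels do not separate 7 from 28 days. Each group was 1 library made from the pooled cords of several mice, so no comparison between conditions has a replicate and no test was made. The cords, 1 cm long, were dissociated with removal of myelin and dead cells, which enriches glia and immune cells and leaves few neurons.

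IGF1 and IGF2 are small secreted peptides related to insulin. Both signal through the IGF1 receptor, a tyrosine kinase that acts mainly through the PI3K-AKT and MAPK pathways, whereas the IGF2 receptor (the cation-independent mannose 6-phosphate receptor) carries IGF2 to lysosomes. The binding proteins hold the ligands in the extracellular fluid, prolong their stay there and can either limit or assist their access to the receptor, while IGFBP7 binds IGFs only weakly. In the central nervous system IGF1 is known as a survival factor for neurons and oligodendrocytes, and macrophages and activated microglia are among its known sources.

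On GRCm38, with GENCODE M21 gene models, Igf1 lies on chromosome 10 from 87858265 to 87937042 on the plus strand. Igf2 lies on chromosome 7 from 142650766 to 142666816 on the minus strand, and Igf1r on the same chromosome from 67952827 to 68233668 on the plus strand. Igf2r lies on chromosome 17 from 12682406 to 12769664 on the minus strand. Igfbp2 (chromosome 1, 72824503 to 72852474, plus strand) and Igfbp5 (chromosome 1, 72857932 to 72874884, minus strand) are neighbours that converge with 5457 bp between them. Igfbp3 lies on chromosome 11 from 7206086 to 7213923 on the minus strand, and Igfbp4 on chromosome 11 from 99041244 to 99054392 on the plus strand. Igfbp7 lies on chromosome 5 from 77349240 to 77408041 on the minus strand. Annotated genes overlap 4 of the members: antisense Igf1os overlaps Igf1, Gm49394, Mir483 and the antisense Igf2os overlap Igf2, antisense Airn overlaps Igf2r, and Polr2b and Gm34648 overlap Igfbp7 on the opposite strand. Whether strand was used in counting is not given in the sources used here, so the members' counts may hold reads of these overlapping genes.

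The table held 21016 cells in 14 clusters of the authors, of 134 to 7018 cells. The Vehicle libraries held 1795 (sham), 7439 (7 dpi) and 9846 (28 dpi) cells and the PLX5622 libraries 492, 504 and 940 cells. Library totals ran from 2606149 to 35694246 unique molecular identifiers (UMIs), and median UMIs per cell from 2268.5 (28 dpi, Vehicle) to 5127 (7 dpi, PLX5622). Clusters were named by 92 listed marker genes, 87 of them detected, and "-like" marks that origin. A cluster led by Dcn and Col3a1 (168 cells) held the highest levels of the pericyte, smooth muscle, fibroblast and leptomeningeal lists together and was left unnamed, as was a cluster led by Mgp and Slc47a1 (134 cells). The PLX5622 libraries still held 29, 61 and 126 microglia-like cells at sham, 7 and 28 dpi, against 674, 2154 and 3974 on Vehicle, and 9, 100 and 161 cells like monocyte-derived macrophages (MDMs), against 185, 3023 and 3313. A barcode sequence was shared between libraries in 88 cells.

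Each member had its highest level in 1 of 4 kinds of cells. Levels are given as counts per 1000000 UMIs (CPM) of the summed UMIs of a cluster, a scale on which a transcript counts alike whatever its length, and square brackets hold 95% intervals that cover counting error only. Over the 6 libraries summed, MDM-like cells led for Igf1 (610 CPM and 76.0% of all its UMIs), followed by proliferating cells at 358 CPM. Endothelial-like cells led for Igf1r (977 CPM, 58.4% of its UMIs) and Igfbp7 (2169 CPM, 82.8%). Astrocyte-like cells led for Igfbp2 (598 CPM, 84.7%). The remaining members were highest in the stromal clusters. Igf2 stood at 530 CPM in the Mgp/Slc47a1 cluster, which held 81.8% of its UMIs, and at 91.4 CPM in the Dcn/Col3a1 cluster. Igfbp5 stood at 11255 CPM in the Dcn/Col3a1 cluster, 6818 CPM in the Mgp/Slc47a1 cluster and 186 CPM in the next, the ependymal-like cells. Igfbp4 (971 CPM) and Igfbp3 (120 CPM) were highest in the Dcn/Col3a1 cluster. For Igfbp3 a single cell there held most of the sham UMIs on Vehicle, and another all of the 7 dpi UMIs. For Igf2r the stromal clusters (87.8 and 86.8 CPM) stood above MDM-like cells (44.3 CPM), but MDM-like cells held 67.4% of its UMIs. The clusters were made from the same cells, so this order is a description.

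**Figure D1:**
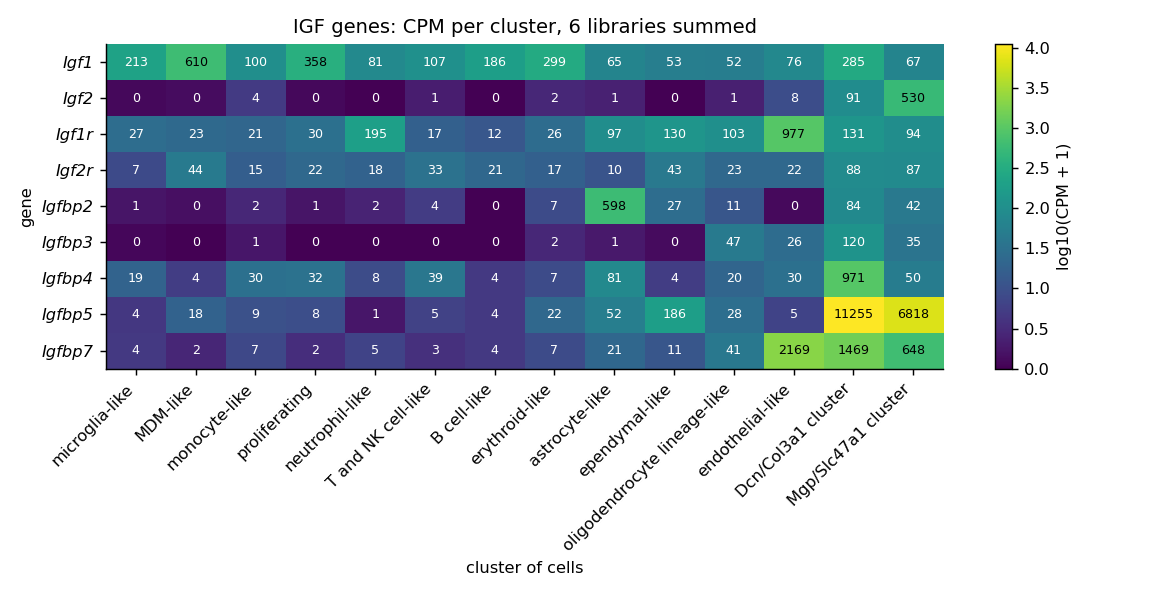
Levels of the 9 members (rows) in the 14 clusters (columns) with the UMIs of all 6 libraries summed, in CPM, with the color on a log10(CPM + 1) scale and the CPM written in each cell. Igfbp5 reaches 11255 CPM in the Dcn/Col3a1 cluster, Igfbp7 2169 CPM and Igf1r 977 CPM in endothelial-like cells, Igf1 610 CPM in MDM-like cells and Igfbp2 598 CPM in astrocyte-like cells.

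After injury many of the measured member pairs on Vehicle were past 2-fold, in both directions. Pairs of a member and a cluster were counted when at least 100 UMIs were found in the sum of both libraries, and as past 2-fold when the log2 ratio of CPM between the libraries was above 1 or below -1. For 7 dpi over sham on Vehicle, 19 of 26 member pairs were past 2-fold (9 higher, 10 lower), against 20.2% of the 32843 pairs of all genes (7.93% higher, 12.3% lower). Of the 26, 10 were past 2-fold by the nearer bound of the 95% interval of counting error. The share of all pairs by that bound is not given here. For 28 dpi over sham on Vehicle the count was 16 of 26 (9 higher, 7 lower), against 14.8% (6.38% higher, 8.4% lower). These comparisons share the sham library, and some Igf1 pairs in both counts reached the minimum through the injured library alone. Between 28 and 7 dpi on Vehicle, 4 of 28 pairs were past 2-fold (3 higher, 1 lower), against 3.59% (1.7% higher, 1.89% lower). That count was 9 with cells thinned to 1000 UMIs, 8 without cells of high doublet score and 7 without non-myeloid cells that held at least 3 UMIs of a myeloid gene list. The shares over all genes under these settings are not given here. On PLX5622 the count was 3 of 13 for 7 dpi over sham (2 higher, 1 lower), against 14.5% (8.74% higher, 5.71% lower). It was 7 of 13 for 28 dpi over sham (2 higher, 5 lower), against 13.5% (6.92% higher, 6.57% lower). With TMM or DESeq2 scaling the split for 7 dpi over sham on PLX5622 was 4 higher and 1 lower. Between diets fewer member pairs were past 2-fold than over sham on Vehicle, and the share over all genes was lower too. For PLX5622 over Vehicle, 3 of 15 pairs were past 2-fold in sham cords (all lower), against 8.03% (2.4% higher, 5.62% lower). At 7 dpi 8 of 22 were (3 higher, 5 lower), against 8.35% (2.7% higher, 5.66% lower). At 28 dpi 8 of 22 were (1 higher, 7 lower), against 10.2% (2.65% higher, 7.59% lower). No Igfbp3 pair reached 100 UMIs. The median log2 ratio of the member pairs was -0.66 at 7 dpi and -0.38 at 28 dpi over sham on Vehicle, where the medians over all pairs were -0.23 and -0.24.

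Igf1 accounts for most of the higher pairs. All 8 of its clusters past the minimum were past 2-fold for 7 dpi over sham and for 28 dpi over sham on Vehicle, 7 of them higher and 1 lower in each, whereas 0 of 11 were past 2-fold between 28 and 7 dpi. Endothelial-like and B cell-like cells, and at 28 dpi T and NK cell-like cells, passed the minimum with 0 sham UMIs, and proliferating cells with 1. They met it through the injured library alone, which nearly fixed that these ratios were past 2-fold, so the count is a description. Without non-myeloid cells that held at least 3 UMIs of the myeloid list, some of these ratios turned sign, each against a floor of 3 UMIs in the sham sum. Igf1 went to -0.30 in endothelial-like cells at 7 dpi, and to -2.35 in B cell-like and -0.79 in T and NK cell-like cells at 28 dpi. Over whole libraries Igf1 stood at 67.6, 384 and 506 CPM in sham, 7 dpi and 28 dpi cords on Vehicle and at 12.7, 275 and 324 CPM on PLX5622. In such library sums fewer cells of a type and less RNA per cell cannot be told apart. MDM-like cells held 61.1%, 74.5% and 76.5% of the Igf1 UMIs on Vehicle and 75.8%, 80.9% and 89.6% on PLX5622, and microglia-like cells held 1.65%, 11.6% and 14.4% on Vehicle.

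In microglia-like cells of Vehicle cords, Igf1 stood at 3.82 CPM [1.65, 7.52] after sham surgery, from 8 UMIs in 674 cells. It stood at 236 CPM [224, 248] at 7 dpi and at 255 CPM [244, 266] at 28 dpi. In PLX5622 cords 0 of 29 microglia-like cells held an Igf1 UMI after sham surgery, which by a limit of 3 counts allows a share of cells with a UMI of up to 10.3%, and the level was 177 CPM [138, 225] at 7 dpi and 195 CPM [156, 242] at 28 dpi. Sham microglia-like cells thus lay far below those of all 4 injured libraries, which lay close together. The ratio of 7 dpi to sham on Vehicle was 61.7-fold, or 5.95 [4.97, 7.16] on the log2 scale, and that of 28 dpi to sham was 6.06 [5.08, 7.27]. The median over all genes for 7 dpi over sham on Vehicle was -0.54 in this cluster and -0.25 in MDM-like cells. The 28 dpi library was 0.11 [0.02, 0.21] above the 7 dpi library, a sign that flipped under TMM and DESeq2 scaling (-0.01 under each). For PLX5622 over Vehicle the log2 ratio was -0.41 [-0.78, -0.06] at 7 dpi and -0.38 [-0.71, -0.07] at 28 dpi. The first was 0.03 with cells thinned to 1000 UMIs each, and the second 0.10 with each cell weighted alike.

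An Igf1 UMI was seen in 1.19%, 34.9% and 29.8% of microglia-like cells on Vehicle, with median depths of 3178, 2902.5 and 1686 UMIs per cell. In lymphocytes (the T and NK cell-like and B cell-like clusters together), which are not a known source of Igf1, the share was 0 of 90 cells in sham, which by the same limit allows up to 3.33%, 16.6% at 7 dpi and 17.1% at 28 dpi, with median depths of 3395, 1794 and 1156 UMIs. With each cell thinned to 1000 UMIs, the share at 7 dpi was 15.8% [14.2, 17.5] in microglia-like cells, 9.92% [5.23, 16.7] in T and NK cell-like cells and 6.85% [3.33, 12.2] in B cell-like cells. At 28 dpi it was 19.7% [18.3, 21.2], 11.6% [7.86, 16.4] and 16.9% [11.4, 23.6]. The thinned shares of microglia-like and B cell-like cells therefore overlapped within counting error at 28 dpi, and the share in MDM-like cells, 33.8% at 7 dpi and 51.2% at 28 dpi, stood above both. Erythroid-like cells, also not a known source, lay higher than the lymphocytes, at 18.9% [9.44, 32.0] of 53 cells at 7 dpi and 40% [21.1, 61.3] of 25 cells at 28 dpi, which overlapped the microglia-like share at 7 dpi and the MDM-like share at 28 dpi. Their Igf1 level was 56.4, 396 and 578 CPM on Vehicle. Over all libraries the erythroid-like cluster also held the highest levels of Gpnmb (1982 CPM) and Spp1 (10317 CPM) after MDM-like cells. It likewise came next after microglia-like cells for P2ry12 (148 CPM). Where the Igf1 of this cluster came from was not tested. Monocyte-like cells, at 5.85% [4.09, 8.08] and 9.39% [6.04, 13.8] thinned, overlapped the T and NK cell-like shares within counting error at both times. Their level was 39.5, 109 and 196 CPM on Vehicle, with 18 UMIs in 8 of 75 sham cells where the lymphocytes held 0.

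In MDM-like cells Igf1 was already present after sham surgery, at 209 CPM [186, 235] on Vehicle. It stood at 514 CPM [504, 524] at 7 dpi and 775 CPM [760, 790] at 28 dpi. On PLX5622 the sham level of 385 CPM rested on 9 cells, with 21 of its 25 UMIs in 1 cell, and the injured levels were 554 CPM [519, 590] and 834 CPM [785, 885]. MDM-like cells thus held more Igf1 than microglia-like cells in each library, and their level was higher at each later time on both diets. On Vehicle the log2 ratio was 1.30 [1.13, 1.47] for 7 dpi over sham, 1.89 [1.72, 2.06] for 28 dpi over sham and 0.59 [0.55, 0.63] for 28 over 7 dpi. On PLX5622 it was 0.52 [-0.05, 1.16] for 7 dpi and 1.12 [0.55, 1.75] for 28 dpi over sham. Between diets the injured libraries differed little, at 0.11 [0.01, 0.20] for PLX5622 over Vehicle at 7 and at 28 dpi. The 7 dpi value was -0.07 with thinned cells and -0.08 with each cell weighted alike.

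**Figure D2:**
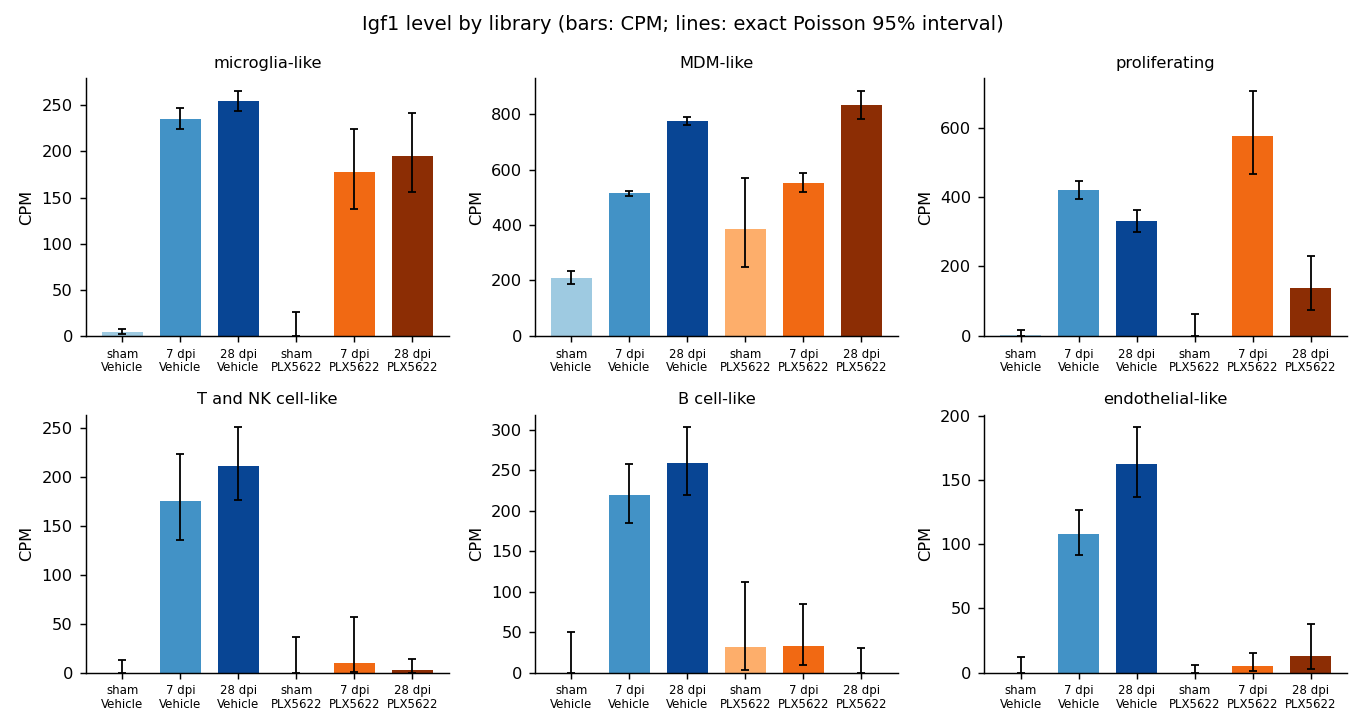
Igf1 level in CPM (bars) in 6 clusters and 6 libraries, with lines for the exact Poisson 95% interval of the count; each panel has its own axis from 0. In microglia-like cells the sham Vehicle bar (3.82 CPM) is barely visible beside 236 and 255 CPM at 7 and 28 dpi, while T and NK cell-like, B cell-like and endothelial-like cells show Igf1 mainly in the injured Vehicle libraries.

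Within microglia-like cells of injured Vehicle cords, Igf1 was lower in cells that held a UMI of the homeostatic genes P2ry12 or Tmem119 and higher in cells that held one of Lpl or Spp1 (each cell thinned to 1000 UMIs). P2ry12, the purinergic receptor of resting microglia, divided the 7 dpi Vehicle cells into 599 with a UMI at 115 CPM of Igf1 and 1385 without at 237 CPM, a log2 ratio of -1.04 [-1.44, -0.66]. At 28 dpi the same split gave 145 and 304 CPM (-1.06 [-1.33, -0.80]). Tmem119, another homeostatic gene, gave -0.43 [-0.76, -0.10] at 7 dpi and -1.03 [-1.30, -0.76] at 28 dpi. Lpl, which encodes lipoprotein lipase, divided them the other way, at 289 CPM with and 164 CPM without a UMI at 7 dpi (0.82 [0.52, 1.11]) and 358 against 191 CPM at 28 dpi (0.90 [0.69, 1.11]). Spp1, which encodes osteopontin, gave 0.97 [0.64, 1.31] and 0.88 [0.65, 1.11]. Gpnmb gave 0.33 [-0.07, 0.71] at 7 dpi and 0.68 [0.39, 0.96] at 28 dpi. In the 28 dpi PLX5622 library the Tmem119 split was -1.70 [-3.47, -0.23], and the interval of the P2ry12 split, -2.51 to 0.34, held 0. There the Spp1 split was -0.50 [-2.89, 1.24] and the Lpl split 0.01 [-2.37, 1.76], with 3 Igf1 UMIs in the cells that held each gene. These are cells of 1 library, not replicates, and the genes were measured in the cells they divide.

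Gpnmb, which encodes a glycoprotein of lipid-laden macrophages, divided MDM-like cells of Vehicle cords in opposite directions at the injured times. At 7 dpi on Vehicle, MDM-like cells with a Gpnmb UMI held 429 CPM of Igf1 and those without held 684 CPM (-0.67 [-0.83, -0.52]). At 28 dpi they held 874 and 673 CPM (0.38 [0.26, 0.49]). Lpl gave the higher Igf1 in cells with a UMI at both times, at 0.80 [0.65, 0.95] and 0.16 [0.04, 0.27]. Spp1 did so at 7 dpi (500 against 273 CPM, 0.87 [0.42, 1.37]) and gave 0.06 [-0.13, 0.27] at 28 dpi. On PLX5622 the Gpnmb split of MDM-like cells was 0.20 [-0.84, 1.38] at 7 dpi and -0.34 [-0.89, 0.22] at 28 dpi. The opposite directions seen on Vehicle were thus not seen there. The Lpl and Spp1 intervals on PLX5622 held 0 at both times.

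Outside these cells, Igf1 was seen mostly together with myeloid transcripts. In T and NK cell-like cells of Vehicle cords it stood at 0, 176 and 211 CPM, in B cell-like cells at 0, 219 and 258 CPM, in endothelial-like cells at 0, 108 and 162 CPM and in astrocyte-like cells at 2.57, 218 and 225 CPM. On PLX5622 the injured levels were 10.3 and 2.55 CPM in T and NK cell-like cells, 33.1 and 0 CPM in B cell-like cells, 5.31 and 12.9 CPM in endothelial-like cells and 9.52 and 59.4 CPM in astrocyte-like cells. All 4 clusters thus held Igf1 mainly in the injured Vehicle libraries, in which MDM-like and microglia-like cells were most numerous. Against a floor of 3 UMIs in the sham sum, endothelial-like Igf1 was at least 11.1-fold higher at 7 dpi and at least 16.7-fold higher at 28 dpi on Vehicle, and T and NK cell-like Igf1 was at least 19.6-fold higher at 28 dpi. For PLX5622 over Vehicle at 7 dpi, endothelial-like Igf1 gave a log2 ratio of -4.34 [-6.64, -2.77], which rests on 3 UMIs in the PLX5622 library.

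The same clusters held UMIs of a list of 12 myeloid genes, among them C1qa, Ctss and Tyrobp. At least 3 such UMIs were found in 12.2%, 59.5% and 51.7% of endothelial-like cells on Vehicle and in 9.21%, 16.0% and 12.3% on PLX5622. For astrocyte-like cells the shares were 3.87%, 65.2% and 49.4% on Vehicle and 2.45%, 10.3% and 3.74% on PLX5622. In cells with fewer than 3 such UMIs, endothelial-like Igf1 stood at 0, 10.9 [2.98, 28.0] and 29.9 CPM [13.7, 56.7] in sham, 7 and 28 dpi Vehicle cords. In astrocyte-like cells it then stood at 0 CPM at 7 dpi, from 24 cells, and 15.0 CPM [1.81, 54.1] at 28 dpi. In lymphocytes it stood at 13.8 CPM [0.35, 77.0] at 7 dpi, from 1 UMI in 58 cells, and 41.8 CPM [18.1, 82.4] at 28 dpi. Most of the Igf1 of these clusters therefore lay in cells that also held myeloid UMIs. The 1 in 20 lymphocytes with the most Igf1 held 65.7% of its UMIs at 7 dpi and 61.3% at 28 dpi.

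Igf1 was also set against Gpnmb, a transcript abundant in MDM-like cells. Per 100 Gpnmb UMIs at 7 dpi on Vehicle there were 6.60 [6.47, 6.74] Igf1 UMIs in MDM-like cells, 8.72 [7.53, 10.0] in lymphocytes, 6.28 [5.30, 7.40] in endothelial-like cells and 10.6 [7.44, 14.7] in astrocyte-like cells. Microglia-like cells held 105 [97.8, 113]. At 28 dpi the values were 29.9 [29.3, 30.6] in MDM-like cells, 36.3 [31.6, 41.7] in lymphocytes, 45.4 [37.0, 55.5] in endothelial-like cells, 23.9 [18.9, 30.0] in astrocyte-like cells and 160 [149, 172] in microglia-like cells. Lymphocytes, endothelial-like and astrocyte-like cells thus lay closer to the MDM-like value than to the microglia-like value at both times. Their intervals held the MDM-like value only for endothelial-like cells at 7 dpi and astrocyte-like cells at 28 dpi. What share of this Igf1 came from free RNA, doublets or the cells themselves was not tested.

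**Figure D3:**
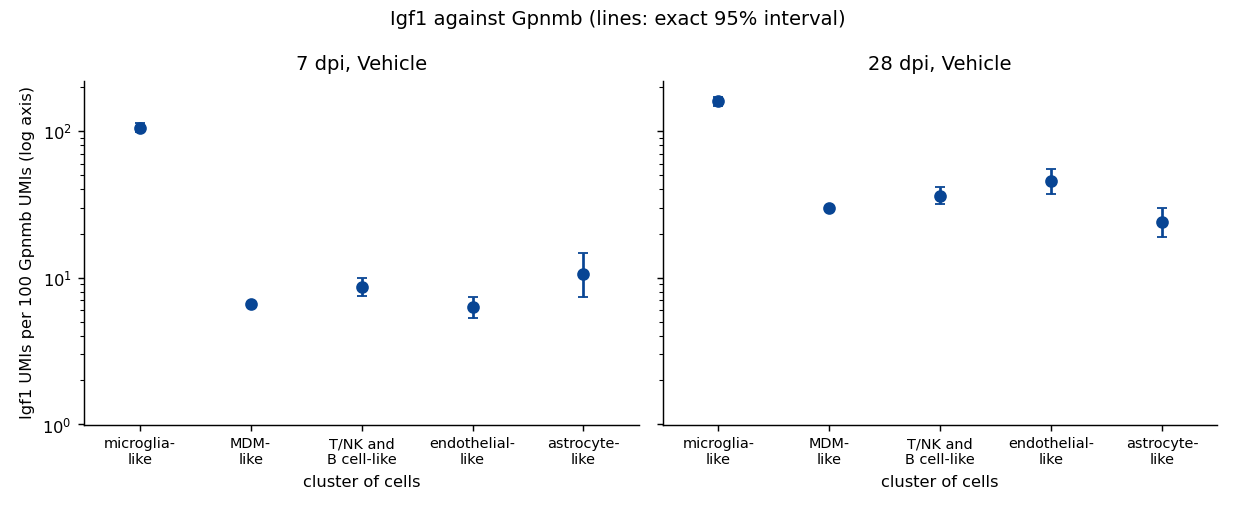
Igf1 UMIs per 100 Gpnmb UMIs (log axis) in 5 groups of cells of the 7 and 28 dpi Vehicle libraries, with lines for the 95% interval. Lymphocytes, endothelial-like and astrocyte-like cells lie closer to the MDM-like values (6.60 at 7 dpi, 29.9 at 28 dpi) than to the microglia-like values (105 and 160).

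Proliferating cells, a cluster led by cell cycle genes, held 1 Igf1 UMI in 29 cells after sham surgery, and stood at 421 and 330 CPM at 7 and 28 dpi on Vehicle. On PLX5622 they held 0, 576 and 137 CPM, from 7, 10 and 16 cells. The 7 dpi over sham log2 ratio on Vehicle was 7.04 [4.56, 12.35], wide because of the single sham UMI. Among clusters past the minimum, Igf1 was lower after injury on Vehicle only in the Dcn/Col3a1 cluster, at 506, 216 and 202 CPM. The log2 ratios to sham were -1.23 [-2.39, -0.25] at 7 dpi and -1.33 [-2.11, -0.62] at 28 dpi. Its sham UMIs were concentrated, with 63 of 117 in 1 cell and 88.9% in 3 cells. On PLX5622 this cluster held 28.2, 110 and 189 CPM.

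Igf2, the fetal growth factor kept on in the meninges and choroid plexus of the adult, was found mainly in the Mgp/Slc47a1 cluster. There it stood at 727 CPM [639, 824] after sham surgery, 561 CPM [332, 886] at 7 dpi and 104 CPM [63.6, 161] at 28 dpi on Vehicle. On PLX5622 it stood at 374 CPM [313, 444], 1418 CPM [1189, 1678] and 146 CPM [53.5, 317]. The 28 dpi libraries were thus the lowest on both diets, whereas the 7 dpi libraries lay on either side of their shams. On Vehicle the log2 ratio was -0.38 [-1.15, 0.31] for 7 dpi and -2.80 [-3.54, -2.15] for 28 dpi over sham. On PLX5622 the ratios were 1.92 [1.57, 2.28] and -1.36 [-2.83, -0.20].

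The Igf2 values rest on few cells. A UMI was found in 16 of 27, 4 of 9 and 11 of 64 cells on Vehicle and in 9 of 14, 7 of 12 and 3 of 8 cells on PLX5622, against 0.297% of the 674 microglia-like cells of sham Vehicle cords (median depths 11409 and 3178 UMIs). A single cell held 70 of the 246 sham Vehicle UMIs, 54 of the 131 sham PLX5622 UMIs and 50 of the 135 UMIs of the 7 dpi PLX5622 library. Without cells of at least 3 myeloid UMIs the levels were 771, 528 and 143 CPM on Vehicle and 374, 764 and 230 CPM on PLX5622. H19, the maternally expressed noncoding RNA next to Igf2 in the same imprinted domain, stood at 1005, 623 and 31.3 CPM on Vehicle and at 611, 1985 and 170 CPM on PLX5622, with its highest and lowest libraries on each diet the same as those of Igf2. Of the 134 cells of the cluster, 50 held an Igf2 UMI, 37 an H19 UMI and 29 both. In sham Vehicle cords the Dcn/Col3a1 cluster held 24 Igf2 UMIs, all in 3 cells.

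Igf1r, the signaling receptor, was highest in endothelial-like cells of every library. On Vehicle it stood there at 1045 CPM [934, 1165], 852 CPM [804, 901] and 832 CPM [773, 895] in sham, 7 and 28 dpi cords, and on PLX5622 at 1101, 1182 and 1385 CPM. The Vehicle libraries were thus lower after injury and the PLX5622 libraries were not. On Vehicle the log2 ratio was -0.29 [-0.47, -0.11] for 7 dpi and -0.33 [-0.52, -0.13] for 28 dpi over sham. On PLX5622 it was 0.10 [-0.06, 0.26] and 0.33 [0.13, 0.53]. None of these passed 2-fold. For PLX5622 over Vehicle the ratio was 0.08 [-0.12, 0.27] in sham, 0.47 [0.33, 0.61] at 7 dpi and 0.73 [0.54, 0.93] at 28 dpi. Without endothelial-like cells that held at least 3 myeloid UMIs the levels were 1052, 1062 and 969 CPM on Vehicle and 1046, 1160 and 1390 CPM on PLX5622, and the 7 dpi over sham ratio on Vehicle was 0.01. An Igf1r UMI was found in 80.1% of endothelial-like cells at 7 dpi on Vehicle, against 3.27% of T and NK cell-like cells (median depths 2409 and 1510 UMIs).

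Elsewhere Igf1r was lower. Neutrophil-like cells held 290 CPM [231, 361], 131 CPM [100, 168] and 187 CPM [146, 238] on Vehicle, with a log2 ratio of -1.15 [-1.65, -0.65] for 7 dpi over sham. Microglia-like cells held 46.3, 19.8 and 29.8 CPM on Vehicle, a ratio of -1.22 [-1.61, -0.83] for 7 dpi over sham in a cluster where 21.5% of all genes were lower past 2-fold. MDM-like cells held 22.6, 13.9 and 36.6 CPM on Vehicle and 15.4, 17.2 and 35.0 CPM on PLX5622. Their 28 dpi library was above the 7 dpi library on Vehicle by 1.40 [1.18, 1.61], where 3.29% of all genes of the cluster were higher past 2-fold. Ligand and receptor thus both had their highest MDM-like level at 28 dpi. Ependymal-like cells, which line the central canal, kept a narrow range of 109 to 165 CPM over the 6 libraries.

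Igf2r, the scavenging receptor, stood at 22.6, 49.4 and 36.1 CPM in MDM-like cells of sham, 7 and 28 dpi Vehicle cords. On PLX5622 it was found in 0 of 9 cells and then at 60.1 and 57.5 CPM. The Vehicle ratio was 1.13 [0.62, 1.69] for 7 dpi over sham and -0.45 [-0.61, -0.30] for 28 over 7 dpi. Igf2r therefore peaked at 7 dpi on Vehicle, whereas Igf1r of the same cells was lowest there. For PLX5622 over Vehicle it was 0.28 [-0.02, 0.57] at 7 dpi and 0.67 [0.30, 1.03] at 28 dpi. Microglia-like cells held 1.43, 8.29 and 8.20 CPM on Vehicle. The Mgp/Slc47a1 cluster, which led for Igf2, held 109, 62.3 and 26.1 CPM of Igf2r on Vehicle.

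**Figure D4:**
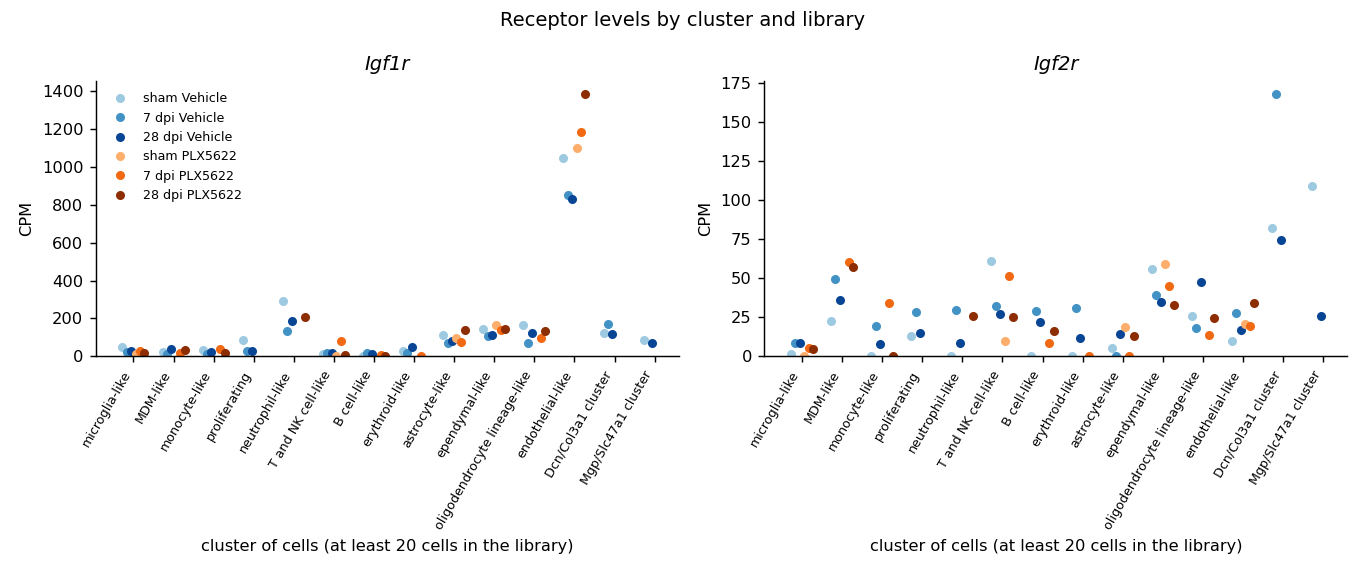
Igf1r and Igf2r levels in CPM by cluster, each dot a library with at least 20 cells in that cluster, colored by library. Igf1r lies at 832 to 1385 CPM in endothelial-like cells and at 131 to 290 CPM in neutrophil-like cells, while Igf2r reaches 168 CPM in the Dcn/Col3a1 cluster of the 7 dpi Vehicle library and 109 CPM or less elsewhere.

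Among the binding proteins, Igfbp2 was highest in astrocyte-like cells over the 6 libraries summed, and was lower in these cells after injury. In astrocyte-like cells of Vehicle cords it stood at 744 CPM [685, 807] after sham surgery, 16.3 CPM [3.37, 47.7] at 7 dpi and 215 CPM [173, 264] at 28 dpi, from 580, 3 and 89 UMIs. On PLX5622 it stood at 1038 CPM [957, 1123], 200 CPM [124, 306] and 178 CPM [117, 259]. Both sham libraries lay above all 4 injured libraries. On Vehicle the log2 ratio to sham was -5.51 [-7.79, -3.96] at 7 dpi and -1.79 [-2.13, -1.47] at 28 dpi. On PLX5622 it was -2.38 [-3.08, -1.75] and -2.54 [-3.16, -1.99]. An Igfbp2 UMI was found in 50.3% of sham Vehicle astrocyte-like cells and in 1 of 69 cells at 7 dpi, against 0.593% and 0.0464% of microglia-like cells (median depths 2024 and 2057 against 3178 and 2902.5 UMIs). Since 65.2% of the astrocyte-like cells of the 7 dpi Vehicle library held at least 3 myeloid UMIs, the levels were also taken without such cells. They were then 763, 90.8 [18.7, 265] and 427 CPM on Vehicle and 1043, 217 and 186 CPM on PLX5622. The sham libraries still lay highest. The Dcn/Col3a1 cluster went the other way on Vehicle, with Igfbp2 at 34.6, 216 and 287 CPM in sham, 7 and 28 dpi cords. These levels rest on 8, 9 and 27 UMIs in 1, 2 and 3 cells. On PLX5622 that cluster held 1, 2 and 0 UMIs. In the 7 dpi Vehicle library ependymal-like cells held 42.9% of the Igfbp2 UMIs and astrocyte-like cells 6.12%.

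Igfbp4, which mostly holds IGF1 back from its receptor and is released by the protease PAPP-A, stood at 1189 CPM [1053, 1338] in the Dcn/Col3a1 cluster of sham Vehicle cords. It stood there at 216 CPM at 7 dpi, from 9 UMIs, and at 457 CPM at 28 dpi. On PLX5622 it stood at 1370, 1073 and 47.1 CPM, the last from 1 UMI. The log2 ratio to sham on Vehicle was -2.46 [-3.60, -1.51] at 7 dpi and -1.38 [-1.88, -0.91] at 28 dpi, and on PLX5622 it was -0.35 [-0.79, 0.07] and -4.86 [-10.18, -2.36]. Microglia-like cells held 39.1, 19.3 and 12.2 CPM on Vehicle, with ratios to sham of -1.02 [-1.43, -0.61] and -1.68 [-2.12, -1.23]. MDM-like cells held 16.2, 5.03 and 2.45 CPM, a ratio of -1.69 [-2.35, -0.97] for 7 dpi over sham. At 7 dpi over sham, 21.5% of all genes of microglia-like cells and 11% of those of MDM-like cells were lower past 2-fold. In microglia-like and MDM-like cells Igf1 was higher in both injured Vehicle libraries and Igfbp4 lower. In the Dcn/Col3a1 cluster both genes were lower.

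Over the 6 libraries summed, Igfbp5, a binding protein that attaches to extracellular matrix, was the most abundant member in the stromal clusters. It varied widely there, and stood below Igfbp7 in both injured Vehicle libraries and the 28 dpi PLX5622 library of the Dcn/Col3a1 cluster. In the Mgp/Slc47a1 cluster it stood at 13316, 3551 and 2297 CPM in sham, 7 and 28 dpi Vehicle cords and at 4722, 3277 and 3085 CPM on PLX5622. Sham was the highest library on each diet. Nearly all cells took part: a UMI was found in 27 of 27, 8 of 9 and 60 of 64 cells on Vehicle and in 14 of 14, 11 of 12 and 8 of 8 cells on PLX5622, against 3.86% of microglia-like cells of sham Vehicle cords. On Vehicle the log2 ratio to sham was -1.91 [-2.19, -1.64] at 7 dpi and -2.54 [-2.68, -2.39] at 28 dpi, and on PLX5622 it was -0.53 [-0.71, -0.35] and -0.61 [-0.89, -0.35]. The sham libraries themselves differed by -1.50 [-1.58, -1.41] for PLX5622 over Vehicle. A single cell held 1741 of the 4503 UMIs of the sham Vehicle library, so that library's level leans on it.

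In the Dcn/Col3a1 cluster Igfbp5 stood at 18271, 720 and 1541 CPM on Vehicle and at 7582, 16783 and 471 CPM on PLX5622. The order of the libraries thus differed between diets, with 7 dpi lowest on Vehicle and highest on PLX5622. The log2 ratio of 7 dpi to sham was -4.67 [-5.23, -4.15] on Vehicle and 1.15 [1.01, 1.28] on PLX5622. At 28 dpi the ratios were -3.57 [-3.82, -3.33] and -4.01 [-5.07, -3.12]. The UMIs lay in few cells, at 25 of 41, 1 of 20 and 7 of 66 on Vehicle and 8 of 19, 5 of 10 and 1 of 12 on PLX5622. In the 7 dpi PLX5622 library 665 of 1064 UMIs came from 1 cell. Without cells of at least 3 myeloid UMIs the levels were 16930, 872 and 1364 CPM on Vehicle and 8049, 9537 and 622 CPM on PLX5622.

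The Dcn/Col3a1 cluster mixed kinds of cells, and its makeup differed between libraries. After its values were seen, its cells were divided by whether they held more UMIs of the pericyte and smooth muscle lists (92 cells) or of the fibroblast list (74 cells), with 2 cells equal. The fibroblast side held 15662 CPM [15276, 16056] of Igfbp5, 1353 CPM of Igfbp4 and 365 CPM of Igf1 over the 6 libraries. The mural side held 38.7, 12.9 and 90.4 CPM of these genes, and 4080 CPM [3768, 4411] of Igfbp7 against 473 CPM on the fibroblast side. The sides thus held opposite binding proteins. Fibroblast-side cells numbered 29, 8 and 25 in sham, 7 and 28 dpi Vehicle cords and 6, 3 and 3 on PLX5622, and mural-side cells 12, 12 and 41 and 12, 7 and 8. On Vehicle the fibroblast side was largest against the mural side in the sham library, where Igfbp4 and Igfbp5 were highest and Igfbp7 lowest. Levels in CPM weigh cells by their UMIs. On PLX5622 the fibroblast side held 69495 of the cluster's 106563 UMIs in sham, 48794 of 63399 at 7 dpi and 4296 of 21215 at 28 dpi. Igfbp5 was there highest at 7 dpi and lowest at 28 dpi. The part of the makeup in these differences was not tested. In the Mgp/Slc47a1 cluster 130 cells were on the fibroblast side and 4 were equal.

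Outside the stroma, Igfbp5 in ependymal-like cells stood at 264, 157 and 157 CPM on Vehicle and 213, 167 and 215 CPM on PLX5622, a log2 ratio of -0.75 [-1.15, -0.34] for 7 dpi over sham on Vehicle. In MDM-like cells it stood at 8.46, 4.78 and 24.2 CPM on Vehicle and at 123, 4.01 and 169 CPM on PLX5622. The sham PLX5622 value came from 8 UMIs in 1 cell. The 28 dpi library was above the 7 dpi library on Vehicle by 2.34 [2.01, 2.69], and the PLX5622 library above the Vehicle library at 28 dpi by 2.81 [2.55, 3.06]. At 28 dpi the UMIs were spread over 150 Vehicle cells with at most 13 in a cell, and over 23 PLX5622 cells with at most 65 in a cell. A UMI of the fibroblast list was found in 1 of the 150 and 0 of the 23 cells, which by the limit of 3 counts allows a share of cells with a UMI of up to 13.04% in the latter. Among MDM-like cells without Igfbp5 at 28 dpi, a fibroblast-list UMI was found in 16 of 3163 on Vehicle and 1 of 138 on PLX5622. Where the Igfbp5 of MDM-like cells came from was not tested.

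Igfbp3, the main carrier of IGFs in blood, was scarce, with 257 UMIs in 109 cells of the whole table. In the Dcn/Col3a1 cluster it stood at 186, 456 and 21.3 CPM on Vehicle, but 30 of the 43 sham UMIs and all 19 of the 7 dpi UMIs came from 1 cell each. In endothelial-like cells it stood at 9.71, 21.2 and 11.3 CPM on Vehicle and at 18.7, 85.0 and 17.2 CPM on PLX5622, with 22 of the 48 UMIs of the 7 dpi PLX5622 library in 1 cell. The sham and 7 dpi Vehicle levels of the Dcn/Col3a1 cluster therefore rest mostly on single cells. The 30 endothelial-like UMIs at 7 dpi on Vehicle lay in 18 cells. In oligodendrocyte lineage-like cells Igfbp3 stood at 89.7, 27.5 and 9.52 CPM on Vehicle, with 7 UMIs in 7 of 22 sham cells. On PLX5622 it stood there at 63.4, 47.6 and 98.5 CPM, from 1, 7 and 12 UMIs. No difference between conditions was read from these few UMIs.

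Igfbp7, a secreted protein of vessel walls, was found in most endothelial-like cells of every library. Its level there was 2866, 1855 and 2115 CPM on Vehicle and 2303, 2703 and 1725 CPM on PLX5622. A UMI was found in 86.2% to 95.1% of these cells in each library, against 1.19% or less of microglia-like cells on Vehicle (median depths of 1342 to 5342 and of 1686 to 3178 UMIs). The 7 dpi over sham log2 ratio was -0.63 [-0.74, -0.52] on Vehicle and 0.23 [0.12, 0.34] on PLX5622, and neither passed 2-fold. At 28 dpi it was -0.44 on Vehicle and -0.42 on PLX5622. Without endothelial-like cells of at least 3 myeloid UMIs the levels were 3285, 2443 and 2846 CPM on Vehicle and 2460, 2840 and 1746 CPM on PLX5622. In the Dcn/Col3a1 cluster Igfbp7 stood at 930, 1993 and 2189 CPM on Vehicle and at 1417, 1562 and 3111 CPM on PLX5622. It was lowest in sham on Vehicle, where Igfbp5 was highest. On PLX5622 Igfbp5 was higher at 7 dpi than in sham. The Igfbp7 intervals of those 2 libraries, [1200, 1662] in sham and [1269, 1901] at 7 dpi, overlapped. The Vehicle libraries gave ratios to sham of 1.10 [0.72, 1.47] and 1.24 [0.95, 1.52]. With thinned cells the second was -0.10. The Mgp/Slc47a1 cluster held 822, 280 and 526 CPM on Vehicle.

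**Figure D5:**
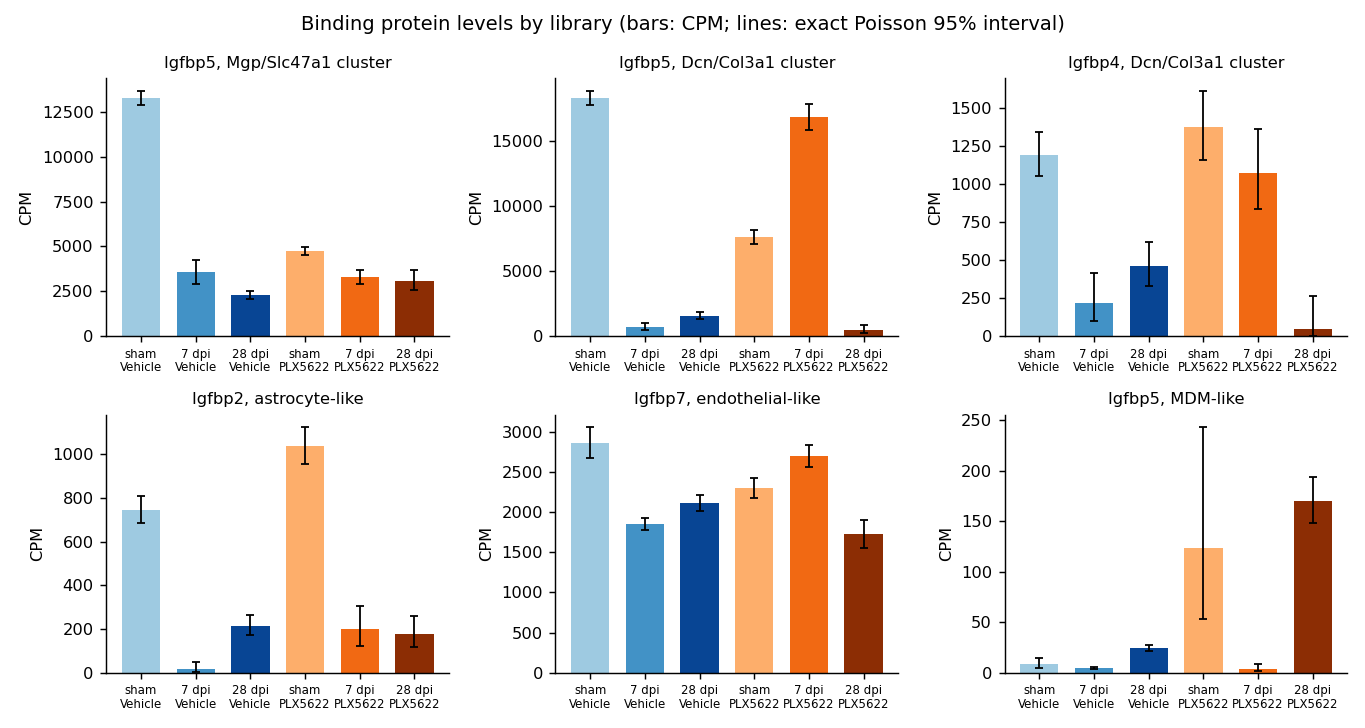
Levels in CPM (bars, each panel with its own axis from 0) of Igfbp5 in the Mgp/Slc47a1, Dcn/Col3a1 and MDM-like clusters, Igfbp4 in the Dcn/Col3a1 cluster, Igfbp2 in astrocyte-like cells and Igfbp7 in endothelial-like cells of the 6 libraries, with lines for the exact Poisson 95% interval. Igfbp2 is highest in the sham libraries (744 and 1038 CPM), Igfbp5 of the Dcn/Col3a1 cluster spans 471 to 18271 CPM, and Igfbp7 stays between 1725 and 2866 CPM.

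Other genes of the pathway were taken from a list of 34, of which 31 were in the table. In microglia-like cells at 7 dpi over sham on Vehicle, 5 of 15 with at least 100 UMIs were lower past 2-fold and 0 higher, where 21.5% of all genes of the cluster were lower. The median log2 ratio was -0.78, against -0.54 over all genes. They were the insulin receptor Insr (-1.37), the PI3K subunits Pik3ca (-1.02) and Pik3r1 (-1.34), the transcription factor Foxo1 (-1.12) and the S6 kinase Rps6kb1 (-1.43). At 28 dpi 2 of 18 were lower, Insr (-1.20) and Pik3r1 (-1.25), where 12.5% of all genes were. In MDM-like cells 2 of 20 were lower at 7 dpi over sham, among them Rps6kb1 (-1.28), where 11% of all genes were, and 1 of 18 at 28 dpi, Rps6kb1 (-1.08), where 5.63% were. Between 28 and 7 dpi 0 of 18 passed 2-fold in microglia-like cells, where 0.982% of all genes did, and 1 of 21 was lower in MDM-like cells, the protease Htra1 (-1.83), where 3.6% were. For PLX5622 over Vehicle at 7 dpi, 0 of 14 passed in microglia-like and 0 of 20 in MDM-like cells, where 6.77% and 4% of all genes did. At 28 dpi the count was 1 of 16 in microglia-like cells, where 7.5% did, and 0 of 18 in MDM-like cells, where 4.81% did. In sham cords it was 1 of 7 in microglia-like cells, Pik3ca just below the limit of -1, where 8.93% did. In MDM-like cells it was 2 of 6, among them the kinase Akt1 (1.45), where 15.7% did. Within PLX5622, Akt1 was the 1 of 4 past 2-fold in MDM-like cells for 7 dpi (-1.02) and for 28 dpi (-1.37) over sham, where 28.8% and 24.7% of all genes were. The sham PLX5622 values of these cells rest on 9 cells.

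The list also held binding proteins and proteases outside the 9 members. Igfbp6, which prefers IGF2, was highest in the Mgp/Slc47a1 cluster, at 6201, 9002 and 2980 CPM on Vehicle and 3911, 4548 and 1822 CPM on PLX5622. It thus shared its leading cluster with Igf2. In the Dcn/Col3a1 cluster it stood at 5332, 1609 and 1392 CPM on Vehicle. Htra1, a secreted protease that cleaves binding proteins, was highest in astrocyte-like cells, at 2566, 435 and 947 CPM on Vehicle and 2874, 1390 and 2131 CPM on PLX5622, with sham highest on both diets as for Igfbp2. Pappa and Pappa2, the proteases of Igfbp4 and Igfbp5, had 5 and 9 UMIs in the whole table.

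The genes most like each member were found by Pearson's r of log2(CPM + 10) over 66 sums of a cluster and a library with at least 20 cells, which share libraries and depth. For Igf1 they were Fblim1 (0.86), Ctsb (0.84) and Lpl (0.84). For Igf2 they were Foxd1 (0.93), Col6a2 (0.92) and Islr (0.90), and for Igfbp5 Serping1 (0.89), Col1a2 (0.88) and Fzd2 (0.88). Igf1r was closest to Dab2ip (0.87), Mpzl1 (0.84) and Ptprg (0.83), and Igfbp7 to Tenc1 (0.96), Foxc1 (0.95) and Ltbp4 (0.95). For Igfbp2 they were Entpd2 (0.87), Vstm4 (0.87) and Nkain4 (0.86), and for Igfbp4 Steap3 (0.71), Oaf (0.69) and Adamts5 (0.65). Igf2r had the weakest likeness, with Marveld1 at 0.60. The lists are descriptions over sums, and those of Igf1r and Igf2r changed wholly with a pseudocount of 1.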

How the data were processed

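Spinal cord cells were captured with 10x 3′ chemistry, and the authors aligned reads to GRCm38/mm10 with Cell Ranger, merged the libraries and clustered the cells with Seurat. They deposited raw UMI counts per gene and cell with cluster numbers per cell, and these counts were used as deposited. Bulk samples of the series were not analysed here. Doublets were left in, and 716 cells exceeded the upper limit on genes per cell that the authors state. Of the barcodes, 254 were outside the count table.

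UMIs were summed per cluster and library to CPM. With 1 library per group there was no test: levels carry exact Poisson, shares Clopper-Pearson and ratios conditional binomial 95% intervals, all of counting error only. A gene at 0 was set to 3 counts in a ratio, and a share of 0 was given the limit of 3 counts. Alternatives were TMM (edgeR 4.0.16) and DESeq2 1.42.0 scaling, equal weight per cell, thinning to 1000 UMIs, at least 500 genes per cell, removal of high Scrublet scores (scanpy 1.11.5), of shared barcodes and of cells with at least 3 myeloid UMIs, and minima of 30 and 300 UMIs. Python 3.11.15 and R 4.3.3 were used, and scripts were tested on simulated data. The members and lists were chosen with earlier results of these data known. Named genes were the members, pathway genes past 2-fold with at least 100 UMIs in microglia-like or MDM-like cells or described by their highest cluster, and the 3 genes most like each member with at least 500 UMIs. Some pathway genes that this rule names are not reported here.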

Additional observations from a re-analysis of the deposited data

Results flagged for a closer look

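Igfbp5 in the Dcn/Col3a1 cluster differed between groups in direction. The log2 ratio of 7 dpi to sham was -4.67 on Vehicle and 1.15 on PLX5622. Likewise, the ratio of PLX5622 to Vehicle was -1.27 in sham, 4.54 at 7 dpi and -1.71 at 28 dpi. With 1 library per group these differences were not tested, and 665 of the 1064 UMIs of the 7 dpi PLX5622 library came from 1 cell.

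Member UMIs were also found in barcodes that are outside the count table. There were 7 among 121 such barcodes of the sham Vehicle library (72315 UMIs), 5 among 102 of the sham PLX5622 library (64317 UMIs) and 2 among 29 of the 7 dpi PLX5622 library (16012 UMIs).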

How the results depend on the processing

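No paired analysis was possible because each group had 1 library. With 1 library per group, intervals cover counting error only, and differences between mice, pools or runs were not measured. The stromal clusters held 8 to 66 cells in a library, and single cells set several of their values. Counts of member pairs past 2-fold are given here in the order of the comparisons named. The pairs measured and the share over all genes under each setting are not given, so these counts are not read against a background. With a minimum of 30 UMIs the counts were 39 for 7 dpi over sham on Vehicle, 33 for 28 dpi over sham on Vehicle, 12 for 28 over 7 dpi, 7 and 12 for 7 and 28 dpi over sham on PLX5622, and 13 and 18 for PLX5622 over Vehicle in sham and at 7 dpi. With 300 UMIs they were 7 and 9 for 7 and 28 dpi over sham on Vehicle, 2 for 28 over 7 dpi, 3 for 28 dpi over sham on PLX5622, and 1 and 2 for PLX5622 over Vehicle at 7 and 28 dpi. By the nearer bound of the interval they were 10 for 7 dpi over sham on Vehicle, 2 for 28 over 7 dpi, 3 for 28 dpi over sham on PLX5622, and 3 and 5 for PLX5622 over Vehicle at 7 and 28 dpi. For 28 over 7 dpi thinning gave 9, the Scrublet filter 8 and the filter on myeloid UMIs 7. That filter gave 4 for 28 dpi over sham on PLX5622 and 4 for PLX5622 over Vehicle at 7 dpi, where equal weight per cell gave 5. TMM and DESeq2 scaling each gave 5 for 7 dpi over sham on PLX5622. Of 165 log2 ratios of a member in a cluster, the sign was turned in 12 by thinning, in 4 by equal weight per cell, in 2 each by TMM and DESeq2 scaling, in 1 by the minimum of 500 genes, in 0 by the Scrublet and shared-barcode filters, and in 7 of 156 by the filter on myeloid UMIs. Under that filter Igf1 over sham on Vehicle went to -2.35 in B cell-like and -0.79 in T and NK cell-like cells at 28 dpi and to -0.30 in endothelial-like cells at 7 dpi, Igf1 for PLX5622 over Vehicle at 28 dpi to 0.47 in astrocyte-like cells, endothelial-like Igf1r at 7 dpi over sham on Vehicle to 0.0138, and Igfbp7 of the Mgp/Slc47a1 cluster to -1.09 for 7 dpi over sham on PLX5622 and -0.14 for PLX5622 over Vehicle at 7 dpi. With thinned cells Igf1 for PLX5622 over Vehicle at 7 dpi went to 0.32 in B cell-like, -0.0748 in MDM-like, 1.41 in erythroid-like, 0.0257 in microglia-like, 0.0531 in monocyte-like and -0.38 in proliferating cells, and Igf1 in B cell-like cells at 7 dpi over sham on Vehicle to -0.25. Thinning also took Igf2 of the Mgp/Slc47a1 cluster for PLX5622 over Vehicle in sham to 0.0544, Igf2r of MDM-like cells at 7 dpi over sham on PLX5622 to -2.04, ependymal-like Igfbp5 for PLX5622 over Vehicle at 28 dpi to -0.0729, Igfbp7 of the Dcn/Col3a1 cluster at 28 dpi over sham on Vehicle to -0.10 and Igfbp7 of the Mgp/Slc47a1 cluster at 7 dpi over sham on PLX5622 to -0.19. Equal weight per cell gave -0.08 for Igf1 in MDM-like cells at 7 dpi and 0.10 in microglia-like cells at 28 dpi for PLX5622 over Vehicle, and 0.0596 and -0.69 for Igfbp7 of the Mgp/Slc47a1 cluster at 28 and 7 dpi over sham on PLX5622. The minimum of 500 genes gave 0.68 for erythroid-like Igf1, PLX5622 over Vehicle at 7 dpi. For 28 over 7 dpi on Vehicle, Igf1 was -0.0576 in erythroid-like cells under DESeq2 scaling and in microglia-like cells -0.0137 under DESeq2 and -0.0102 under TMM scaling, and TMM gave -0.20 for Igfbp7 of the Dcn/Col3a1 cluster, PLX5622 over Vehicle at 28 dpi. Several of these values rest on the floor of 3 counts, and the cause of the others was not tested.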
